A study of Mus musculus with 8 samples.

Results

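The 10 genes described here encode the 5 subunits of the transcription factor NF-κB, *Nfkb1*, *Nfkb2*, *Rel*, *Rela* and *Relb*, and 5 proteins that restrain or modulate it, *Nfkbia*, *Nfkbib*, *Nfkbie*, *Nfkbiz* and *Tnfaip3*. They were taken by name from the 23284 genes of the expression tables, with earlier results of these data known. Each was present as 1 row in every library, with an estimation status of OK, and all 10 were among the 11198 genes whose mean over the 8 libraries reached 1 FPKM, which were the genes tested. FPKM scales the fragments counted for a gene by the length of its exons and by the depth of the library, and so compares genes per length.

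The study sequenced RNA of naive CD4 T cells and 3 effector subsets, Th1, Th2 and Th17, as 2 libraries for each of these 4 groups. All cells came from DO11.10 Tg mice, whose transgenic TCR recognises a peptide of ovalbumin (OVA), and the mice of the study were 6 to 12 weeks old. The naive cells were splenic CD4 T cells sorted as CD44low CD62Lhi and were not cultured. The effector cells were such cells after 6 days of culture with 0.3 μM OVA peptide and irradiated splenocytes that had been depleted of T cells. For Th1 cells, 100 U/ml IL-12 was given with 30 U/ml IL-2 and 1 μg/ml of an antibody to IL-4. Th2 cells received 100 U/ml IL-4, again with 30 U/ml IL-2, and 10 μg/ml of an antibody to IFN-γ. The Th17 condition combined IL-6, IL-1β and IL-23 at 10 ng/ml each with 10 μg/ml of each antibody and no added IL-2. The 3 conditions therefore differed in several cytokines and antibodies together, whose parts cannot be told apart, and naive and effector cells differed both in differentiation and in culture. Neither the labels nor the methods say whether the libraries of a group came from separate mice or cultures, so the p-values measure only the spread between these libraries, which may be technical.

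NF-κB dimers are held in the cytoplasm of resting T cells by inhibitory IκB proteins. In the canonical pathway, TCR, CD28 and cytokine receptor signals activate the IκB kinase complex, IκB is degraded, and RelA or c-Rel paired with p50 enters the nucleus. In the noncanonical pathway, the kinase NIK drives processing of the *Nfkb2* product p100 to p52, which pairs with RelB. Several genes of the pathway, among them those of IκBα, A20 and p100, are known targets of NF-κB themselves, which gives the pathway its feedback.

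The confidence intervals of the FPKM values imply 14463466 to 21058286 fragments per library, the naive libraries being the shallowest. For the 10 genes they imply 139 to 14840 fragments per library and a 95% interval of 1.64% to 17% to either side of the value, which does not cover the spread between libraries. These fragment numbers are derived from the intervals and are not read counts. For *Nfkbiz* they were 630 at 6.98 FPKM in Th2 replicate 1 and 413 at 7.99 FPKM in Th2 replicate 2. The 7 T cell markers examined were above 1 FPKM in all groups, and the lineage markers *Ifng* with *Tbx21*, *Il4* with *Gata3*, and *Il17a* alone were highest in both libraries of their own subset. Markers of other cells were low, with summed FPKM of 2.32 to 12.1 for 5 B cell genes and 7.92 to 23.2 for 4 myeloid genes. The CD8 genes *Cd8a* and *Cd8b1* together had 93.4 and 54.5 FPKM in naive replicates 1 and 2 and 8.94 to 13.0 in effector libraries. Most of the naive sum was *Cd8b1*, at 90.5 and 52.8, while *Cd8a* was at 2.94 and 1.77. In these bulk libraries, fewer cells that express a gene and less RNA per cell cannot be told apart.

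Sequence upstream of the start site was examined because several of the 10 genes are textbook targets of NF-κB. The RefSeq promoter table for GRCm38.p6 covered 7 of the 10 genes, all but *Nfkb1*, *Relb* and *Nfkbiz*, with windows from 250 bases before to 50 bases after the start site. The 10-base NF-κB consensus motif was searched by its letters on both strands. It was found in the windows of 5 of these 7 genes, *Nfkb2*, *Rel*, *Nfkbia*, *Nfkbie* and *Tnfaip3*, and not in those of *Rela* and *Nfkbib*. Of the 32851 windows of all genes in the table, 4.505% held a match, and of the 7899 genes that were also tested for expression, 6.368%. The 150 bases before the start site of each gene with a match are printed here, 5′ to 3′ on the strand of the gene, with matches in capitals.
Nfkb2: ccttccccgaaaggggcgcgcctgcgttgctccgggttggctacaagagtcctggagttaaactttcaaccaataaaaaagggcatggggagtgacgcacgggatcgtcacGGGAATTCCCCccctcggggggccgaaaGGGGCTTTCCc
Rel: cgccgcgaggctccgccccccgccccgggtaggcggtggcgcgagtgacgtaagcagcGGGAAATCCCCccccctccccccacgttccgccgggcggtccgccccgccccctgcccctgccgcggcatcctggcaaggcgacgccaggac
Nfkbia: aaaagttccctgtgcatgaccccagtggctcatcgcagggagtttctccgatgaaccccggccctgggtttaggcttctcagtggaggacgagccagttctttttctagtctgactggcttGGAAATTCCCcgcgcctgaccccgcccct
Nfkbie: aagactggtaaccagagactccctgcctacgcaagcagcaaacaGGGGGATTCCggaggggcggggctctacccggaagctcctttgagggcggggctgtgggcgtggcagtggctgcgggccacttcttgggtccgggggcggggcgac
Tnfaip3: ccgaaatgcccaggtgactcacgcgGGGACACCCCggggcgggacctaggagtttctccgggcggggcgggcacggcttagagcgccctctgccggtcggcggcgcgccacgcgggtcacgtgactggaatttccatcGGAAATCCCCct

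In the order printed, these stretches lie at chr19:46304587-46304736 on the plus strand, chr11:23770970-23771119 on the minus strand, chr12:55492648-55492797 on the minus strand, chr17:45555550-45555699 on the plus strand and chr10:19015411-19015560 on the minus strand. The match nearest to a start site began 11 bases before it in *Nfkb2*, 12 bases in *Tnfaip3* and 29 bases in *Nfkbia*. Matches that overlap each other share a block of capitals in *Nfkb2* and *Rel*, and 2 further start sites of *Nfkb2* also had matches in their windows. The window of another start site of *Tnfaip3* had no match. A match describes the letters of the reference genome and was not linked to binding in these cells.

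Compared with naive cells, the precursors *Nfkb1* and *Nfkb2* were higher in each effector subset, whereas *Nfkbiz* was lower in each subset. These are 2 and 1 of the 10 genes, where 24.8% of all genes tested were higher and 23.8% lower in all 3 comparisons. Such patterns were thus no more frequent among the 10 genes than among all genes. *Nfkbia* was 4.61-fold lower in Th1 and 4.96-fold lower in Th2 cells than in naive cells, but stood at 174 ± 15.1 FPKM in Th17 against 142 ± 15.4 in naive cells (SD, n = 2). Of the 10 genes, 2 were higher and 7 lower in Th1 than in naive cells, where 33.8% and 33.5% of the 11198 genes tested were called in these directions. In Th2 cells 3 were higher and 5 lower, beside 31.8% and 38.7% of all genes, and Th17 cells had 5 higher and 2 lower, beside 37.5% and 29.8%. The 3 comparisons share the naive libraries and are therefore not independent of each other. The median log2(FPKM + 1) difference of the 10 genes from naive cells was -0.55 for Th1, -0.46 for Th2 and 0.31 for Th17 cells, where the median of all genes tested was -0.01, -0.11 and 0.08. Without naive replicate 2 or without Th17 replicate 2, the number higher in Th17 was 3 in place of 5.

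**Figure D1:**
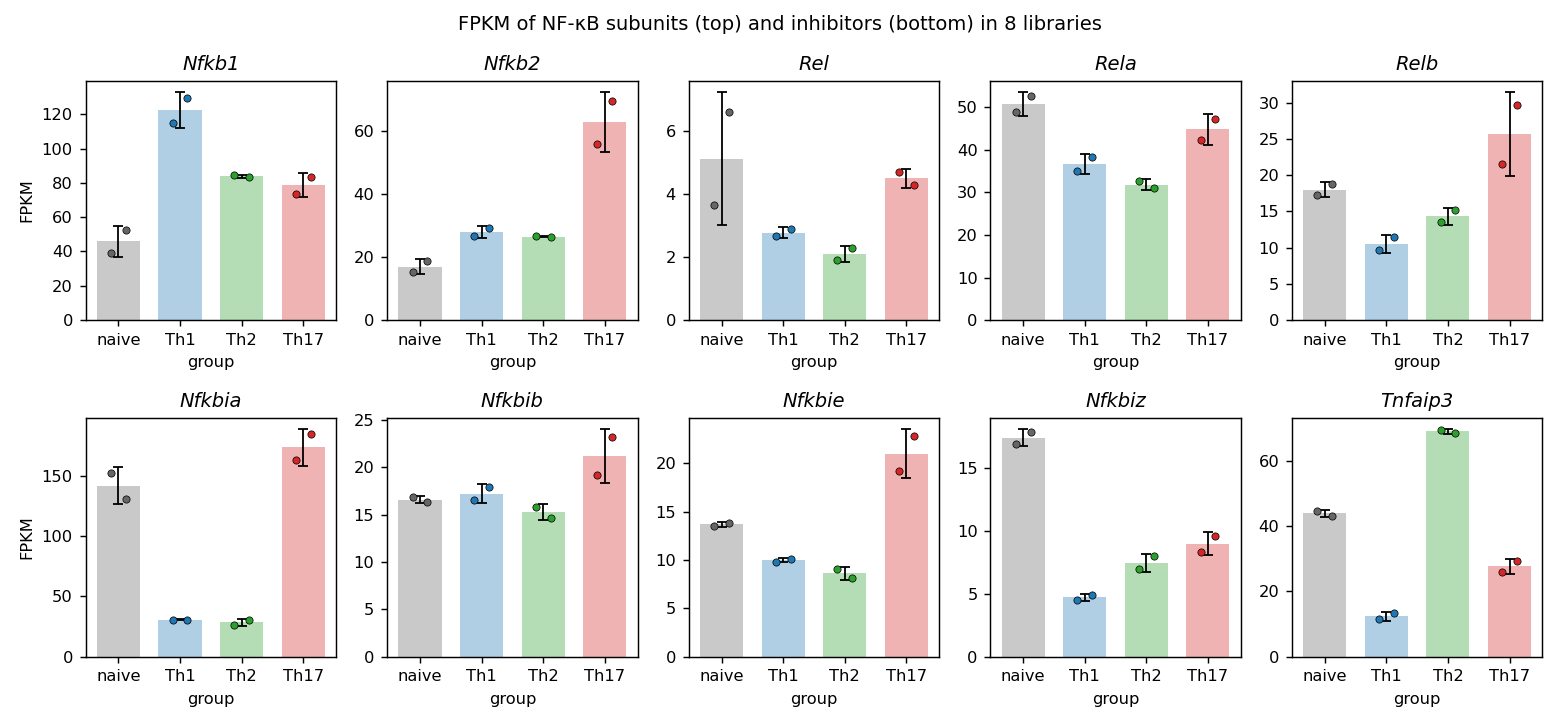
FPKM of the 5 subunit genes (top) and the 5 inhibitor genes (bottom) in naive, Th1, Th2 and Th17 cells, each panel with its own linear axis from 0. Points are the 2 libraries of a group, bars their mean and error bars the SD, and *Nfkbia* stands at 131 to 184 FPKM in naive and Th17 libraries and at 26.3 to 30.9 in Th1 and Th2 libraries.

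Between the effector subsets, Th17 cells had the higher values for most of the 10 genes. Relative to Th2, 7 genes were higher in Th17 and 1, *Tnfaip3*, was lower, beside 31.7% and 12% of all genes tested. Relative to Th17, 1 gene was higher in Th1, *Nfkb1*, and 6 were lower, beside 9.17% and 16%. Between Th1 and Th2, 1 gene was higher in Th1 and 2 were lower, beside 27.4% and 16.9%. The median of the 10 genes was 0.63 for Th17 minus Th2, -0.90 for Th1 minus Th17 and 0.13 for Th1 minus Th2. The median of all genes was 0.18, -0.08 and 0.11 for these comparisons and 0.01, 0.00 and 0.00 after median scaling of the libraries, so the values of Th17 minus Th2 and Th1 minus Th2 include a general shift of that size. With median scaling, 50.97% of the calls across all genes in Th17 minus Th2 were higher in place of 72.59%, and 50.01% in Th1 minus Th2 in place of 61.78%, and in Th2 minus naive the share went from 45.09% to 55.12%. For the 10 genes this scaling gave a median of 0.43 in Th17 minus Th2. The calls of *Rel* (0.68, adjusted p = 0.051, limma) and *Nfkbib* (0.25, adjusted p = 0.0814) in that comparison were then lost. The number higher in Th17 than in Th2 was 4 in place of 7 without Th2 replicate 2 and without Th17 replicate 2.

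The precursor subunits are described before the other members. *Nfkb1*, on chromosome 3 of mm10 from 135584655 to 135691547, encodes p105, the precursor of p50, which lacks a transactivation domain and pairs with the Rel proteins. The naive libraries stood at 39.3 and 52.3 FPKM, the Th1 libraries at 115 and 129.7, the Th2 libraries at 84.4 and 83.2, and the Th17 libraries at 73.7 and 83.5. Both naive libraries lay below all 6 effector libraries, the Th1 libraries lay above the rest, and the ranges of Th2 and Th17 overlapped. On the log2(FPKM + 1) scale, Th1 exceeded naive cells by 1.41, Th2 by 0.87 and Th17 by 0.78, each with a standard error of 0.15 and with adjusted p-values of 0.000176, 0.00173 and 0.00323 (limma, Benjamini-Hochberg). In ratios of the means these were 2.67-, 1.83- and 1.71-fold. Th1 exceeded Th2 by 0.54 (adjusted p = 0.0265) and Th17 by 0.63 (adjusted p = 0.0235). Both differences rested on every library of the groups compared, since leaving out any one of those 4 gave adjusted p-values of 0.057 to 0.137 against Th2 and 0.0636 to 0.127 against Th17. The difference from Th2 was also lost with median scaling (0.42, adjusted p = 0.0537) and with quantile normalization (0.32, adjusted p = 0.128), and both were lost with no filter on low values (adjusted p = 0.0788 and 0.0682). Th17 and Th2 differed by -0.09 (95% confidence interval -0.45 to 0.27, adjusted p = 0.643).

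*Nfkb2* encodes p100, the precursor of p52, which also acts as an inhibitor that retains RelB. It lies on chromosome 19 from 46304737 to 46312090 on the plus strand. By library, its FPKM was 15.2 and 18.6 (naive), 26.7 and 29.2 (Th1), 26.6 and 26.4 (Th2), and 56.1 and 69.6 (Th17). The Th17 libraries stood above all others, and the naive libraries below all others. Against naive cells the log2 differences were 0.70 in Th1 (adjusted p = 0.00372), 0.62 in Th2 (adjusted p = 0.00575) and 1.83 in Th17 (adjusted p = 2.88e-05), with a standard error of 0.14 (limma). The level in Th17 was 2.37 times that in Th2 and 2.25 times that in Th1, log2 differences of 1.21 (adjusted p = 0.000876) and 1.13 in the direction of Th17 (adjusted p = 0.00146). Th1 and Th2 differed by 0.07 (95% confidence interval -0.26 to 0.40, adjusted p = 0.706). The gene shares 299 exonic bases, 6.52% of its exons, with *Psd* on the other strand, which was listed at 0.363 to 1.73 FPKM and was also highest in the Th17 libraries, and its part in the *Nfkb2* values was not tested. It also shares 531 exonic bases with the lncRNA gene *AC114539.1* on the other strand, which was not matched in the tables.

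*Rela* encodes RelA (p65), the main transactivating subunit of the canonical pathway, and lies on chromosome 19 from 5637490 to 5648130. The naive libraries stood at 48.8 and 52.7 FPKM, the Th1 libraries at 35.1 and 38.4, the Th2 libraries at 32.7 and 31.0, and the Th17 libraries at 42.3 and 47.3. From high to low the groups ran naive, Th17, Th1 and Th2 with no overlap between libraries of neighbouring groups, but only part of these steps passed the test. Relative to naive cells *Rela* was lower in Th1 by -0.46 on the log2 scale (standard error 0.10, adjusted p = 0.00611, limma) and in Th2 by -0.66 (adjusted p = 0.000961). In Th17 it differed from naive cells by -0.18 (95% confidence interval -0.42 to 0.06, adjusted p = 0.16), and with quantile normalization by -0.34 (adjusted p = 0.00932). Th17 exceeded Th2 by 0.48 (adjusted p = 0.00964), a call lost without Th2 replicate 2 (adjusted p = 0.054) and without Th17 replicate 2 (adjusted p = 0.0616). Th1 minus Th17 was -0.28 (adjusted p = 0.0948, and 0.0482 with the replicate number as a block), and Th1 minus Th2 was 0.20 (adjusted p = 0.153).

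*Rel* encodes c-Rel, the subunit that T cells use downstream of TCR and CD28 for cytokine genes such as *Il2*. It had the lowest level of the 10 genes in every group, the naive libraries at 3.65 and 6.62 FPKM, the Th1 libraries at 2.66 and 2.90, the Th2 libraries at 1.91 and 2.29, and the Th17 libraries at 4.72 and 4.30. The naive libraries differed from each other by more than those of any subset, and the Th17 libraries lay between them. The gene model in the files (chromosome 11, 23741729 to 23770970, minus strand) ends 4882 bases short of the 3′ end of the GENCODE model, so its FPKM covers only part of that transcript. Relative to naive cells the log2 difference was -0.65 in Th1 (standard error 0.22, adjusted p = 0.0327, limma) and -0.94 in Th2 (adjusted p = 0.00677). The difference in Th2 was -0.59 without naive replicate 2 and -1.30 without naive replicate 1, and passed both times. The call in Th1 was lost when any library other than naive replicate 1 was left out, with adjusted p-values of 0.0541 to 0.122, and the difference was -0.30 without naive replicate 2. In Th17 the difference was -0.11 (adjusted p = 0.668), which became -0.47 without naive replicate 1 (adjusted p = 0.0226) and 0.24 without naive replicate 2 (adjusted p = 0.158). Th17 exceeded Th2 by 0.83 (adjusted p = 0.0215), and leaving out any of their 4 libraries gave adjusted p-values of 0.0704 to 0.1. Th1 minus Th17 was -0.54 (adjusted p = 0.124), with adjusted p-values of 0.0172 and 0.0175 without naive replicate 1 or 2, whose spread then left the fit.

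*Relb* encodes RelB, the partner of p52 in the noncanonical pathway, on chromosome 7 from 19606222 to 19629438. By library, its FPKM was 17.3 and 18.8 (naive), 9.62 and 11.4 (Th1), 13.5 and 15.2 (Th2), and 21.6 and 29.8 (Th17). The groups did not overlap and ran Th17, naive, Th2 and Th1 from high to low. Th1 was lower than naive cells by -0.73 on the log2 scale (standard error 0.16, adjusted p = 0.00634, limma), while Th2 differed from them by -0.31 (adjusted p = 0.128, and 0.027 with the replicate block). Th17 was higher than naive cells by 0.47 (adjusted p = 0.0373), which rested on the higher Th17 library. Without Th17 replicate 2 the difference was 0.25 (adjusted p = 0.201), and without either naive or either Th2 library the adjusted p-value was 0.0573 to 0.14. Between subsets, Th17 exceeded Th1 2.44-fold (log2 1.20, adjusted p = 0.00229) and Th2 1.79-fold (log2 0.78, adjusted p = 0.00911, and 0.0518 without Th2 replicate 1). Th1 minus Th2 was -0.42 (adjusted p = 0.0788, 0.0141 with the replicate block, and 0.0423 without either Th17 library). *Relb* is also expressed in dendritic cells. The 5 dendritic cell markers summed to 0.728 and 0.815 FPKM (naive), 1.36 and 1.22 (Th1), 2.82 and 2.72 (Th2) and 3.90 and 3.88 (Th17), with *Siglech* at 0 in all effector libraries, and their part in the *Relb* values was not tested.

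Among the IκB proteins, *Nfkbia* showed the widest range. It encodes IκBα, which binds RelA-p50 dimers and is resynthesised after NF-κB activation, and it lies on chromosome 12 from 55489409 to 55492647 on the minus strand, with the consensus match shown above 29 bases before its start. The naive libraries stood at 152 and 131 FPKM, the Th1 libraries at 30.5 and 30.9, the Th2 libraries at 26.3 and 30.8, and the Th17 libraries at 163 and 184. Naive and Th17 libraries lay far above those of Th1 and Th2, whose ranges overlapped. Th1 was lower than naive cells by -2.17 on the log2 scale (standard error 0.13, adjusted p = 8.54e-06, limma) and Th2 by -2.27 (adjusted p = 5.66e-06). Th17 differed from naive cells by 0.29 (95% confidence interval -0.01 to 0.59, adjusted p = 0.0756), and by 0.40 without naive replicate 1, which just passed the threshold. It was 0.18 without naive replicate 2 (adjusted p = 0.303) and 0.02 with quantile normalization (adjusted p = 0.88), and the adjusted p-value ran from 0.05 to 0.88 over the 18 alternatives. Th17 exceeded Th2 6.08-fold (log2 2.56, adjusted p = 2.43e-05) and Th1 5.65-fold (log2 2.46, adjusted p = 3.49e-05). Th1 and Th2 differed by 0.11 (95% confidence interval -0.19 to 0.40, adjusted p = 0.53), and by -0.01 with median scaling.

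A list of 13 immediate early genes, a sign of recent stimulation or handling, had a higher summed level in naive cells than in each subset. By library, the summed FPKM was 984 and 859.8 (naive), 332 and 348 (Th1), 460 and 521 (Th2), and 459 and 561 (Th17). All 13 were present in the tables, and none was at 0 in both libraries of a group. In each group 3 were below 1 FPKM in both libraries. These were *Hspa1a* and *Hspa1b* throughout, with *Atf3* in naive cells (0.123 and 0.0495) and *Fosb* in each subset. The 3 most abundant, *Junb*, *Zfp36* and *Btg2*, made up 72.8% of the sum in naive cells. Of the 10 that were tested, 8 were lower in Th1, 7 in Th2 and 8 in Th17 than in naive cells, while *Atf3* was higher in each subset (log2 3.58, 3.88 and 4.54). Beside these stand 33.5%, 38.7% and 29.8% of all genes tested that were lower, and 33.8%, 31.8% and 37.5% that were higher. The differences of *Jun* in Th1 (-0.17), of *Junb* (-0.27) and *Egr1* (0.14) in Th2 and of *Junb* in Th17 (0.02) did not pass. *Nfkbia*, *Nfkbiz* and *Tnfaip3* are themselves known to respond quickly to stimulation, and the part of these signals in their naive levels was not tested. Between Th17 and Th2 libraries the ranges of this sum overlapped, though its genes moved in both directions. In Th17 minus Th2, *Fos* (-1.56), *Zfp36* (-1.06), *Jun* (-1.04), *Egr1* (-0.85) and *Btg2* (-0.72) were lower, and *Nr4a1* (1.48) and *Atf3* (0.66) higher. Their part in the *Nfkbia* difference between these subsets was not tested.

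*Nfkbie* encodes IκBε, an inhibitor that retains RelA and c-Rel dimers, on chromosome 17 from 45555716 to 45563168. By library, its FPKM was 13.5 and 13.9 (naive), 9.82 and 10.1 (Th1), 9.11 and 8.16 (Th2), and 19.2 and 22.8 (Th17). All groups were apart, in the order Th17, naive, Th1 and Th2. The log2 difference from naive cells was -0.42 in Th1 (adjusted p = 0.011), -0.61 in Th2 (adjusted p = 0.00178) and 0.58 in Th17 (adjusted p = 0.00244), with a standard error of 0.11 (limma). The call in Th1 was lost without Th1 replicate 1 (adjusted p = 0.0585). Th17 exceeded Th2 2.43-fold (log2 1.19, adjusted p = 0.000313) and Th1 2.11-fold (log2 1.00, adjusted p = 0.000773), and Th1 and Th2, which are neighbours in the order, differed by 0.19 (adjusted p = 0.193).

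*Nfkbib*, the gene of IκBβ on chromosome 7 from 28758251 to 28766524, was the most even of the 10 genes. The naive libraries stood at 16.8 and 16.3 FPKM, the Th1 libraries at 16.5 and 17.9, the Th2 libraries at 15.8 and 14.7, and the Th17 libraries at 19.1 and 23.2. The Th17 libraries were the highest, and the naive and Th1 libraries overlapped. The log2 difference from naive cells was 0.05 in Th1 (95% confidence interval -0.22 to 0.32, adjusted p = 0.716, limma) and -0.11 in Th2 (-0.38 to 0.15, adjusted p = 0.391), so changes of more than about 0.4 in size lay outside both intervals. Th17 exceeded naive cells by 0.33 (adjusted p = 0.0355) and Th2 by 0.44 (adjusted p = 0.0187). The first of these calls was lost when either naive library, either Th1 library or Th17 replicate 2 was left out (adjusted p = 0.0538 to 0.195), and the other without Th2 replicate 2 (adjusted p = 0.0993) or Th17 replicate 2 (adjusted p = 0.105). With median scaling the difference from Th2 was 0.25 (adjusted p = 0.0814). The gene shares 314 exonic bases with *Ccer2* on the other strand, so reads from both genes could not be told apart there if the strand was not kept.

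*Nfkbiz* encodes IκBζ, a nuclear member of the IκB family that acts with p50 on a subset of NF-κB target genes and is known for its role in Th17 differentiation. It lies on chromosome 16 from 55811377 to 55838641. By library, its FPKM was 16.9 and 17.9 (naive), 4.54 and 4.89 (Th1), 6.98 and 7.99 (Th2), and 8.35 and 9.61 (Th17). The groups ran naive, Th17, Th2 and Th1 from high to low without overlap. The log2 difference from naive cells was -1.69 in Th1 (adjusted p = 1.3e-05), -1.12 in Th2 (adjusted p = 8.25e-05) and -0.88 in Th17 (adjusted p = 0.000295), with a standard error of 0.11 (limma), which corresponds to 3.69-, 2.32- and 1.94-fold lower means. Among effector cells Th1 was lower than Th17 by -0.80 (adjusted p = 0.00204) and lower than Th2 by -0.57 (adjusted p = 0.00547). These calls were lost in a voom fit of the implied fragments, with adjusted p-values of 0.373 and 0.505. The implied fragments of this gene ran against its FPKM between the Th2 libraries, as given above. Th17 minus Th2 was 0.23 (adjusted p = 0.119, and 0.0367 with the replicate block).

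*Tnfaip3* encodes A20, a ubiquitin-editing enzyme that ends signalling to the IκB kinase complex, on chromosome 10 from 19000910 to 19015410. The naive libraries stood at 44.7 and 43.2 FPKM, the Th1 libraries at 11.5 and 13.4, the Th2 libraries at 69.4 and 68.5, and the Th17 libraries at 26.0 and 29.3. The groups were well apart, in the order Th2, naive, Th17 and Th1, and *Tnfaip3* was the only one of the 10 genes with its highest level in Th2. The log2 difference from naive cells was -1.75 in Th1 (adjusted p = 1.09e-05), 0.64 in Th2 (adjusted p = 0.00138) and -0.65 in Th17 (adjusted p = 0.00135), with a standard error of 0.11 (limma). Th2 exceeded Th1 5.54-fold (log2 2.38, adjusted p = 1.06e-05) and Th17 2.49-fold (log2 1.29, adjusted p = 0.000222). Th17 in turn exceeded Th1 2.22-fold (log2 1.09, adjusted p = 0.000498). All 6 comparisons of this gene passed the threshold under each of the 18 alternatives tried.

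**Figure D2:**
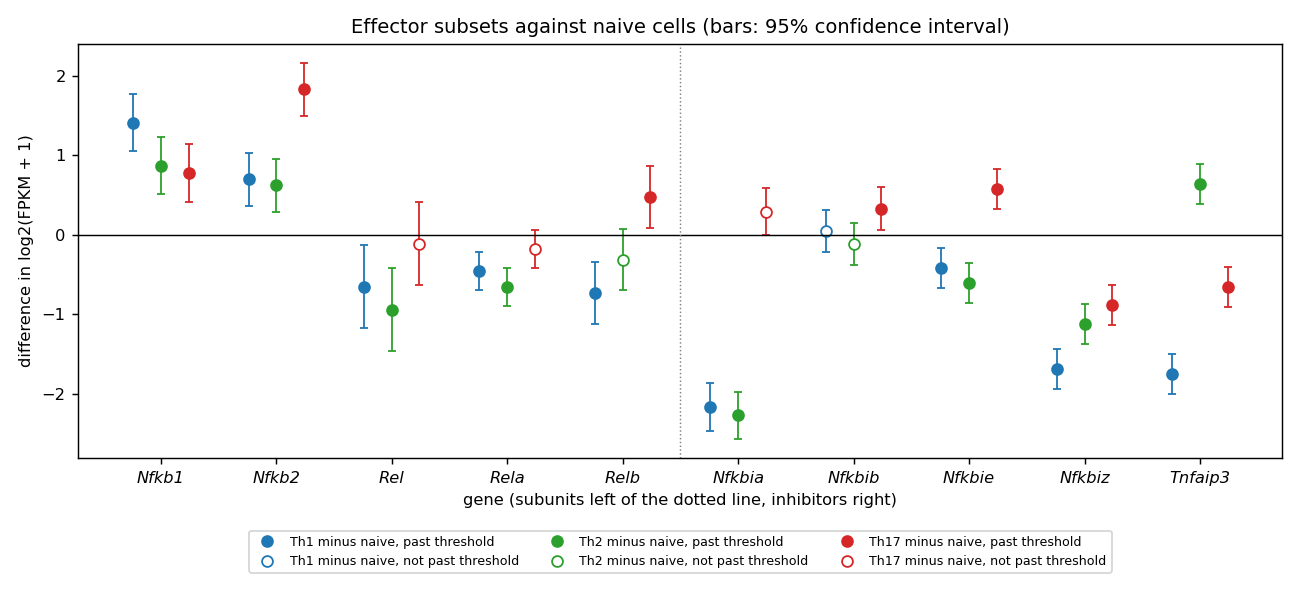
Difference from naive cells in log2(FPKM + 1) for each of the 10 genes (horizontal axis) in Th1, Th2 and Th17, with 95% confidence intervals from limma. Filled circles passed an adjusted p of 0.05 and open circles did not, and *Nfkb1* and *Nfkb2* lie above 0 in all subsets while *Nfkbia* lies at -2.17 in Th1 and -2.27 in Th2.

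**Figure D3:**
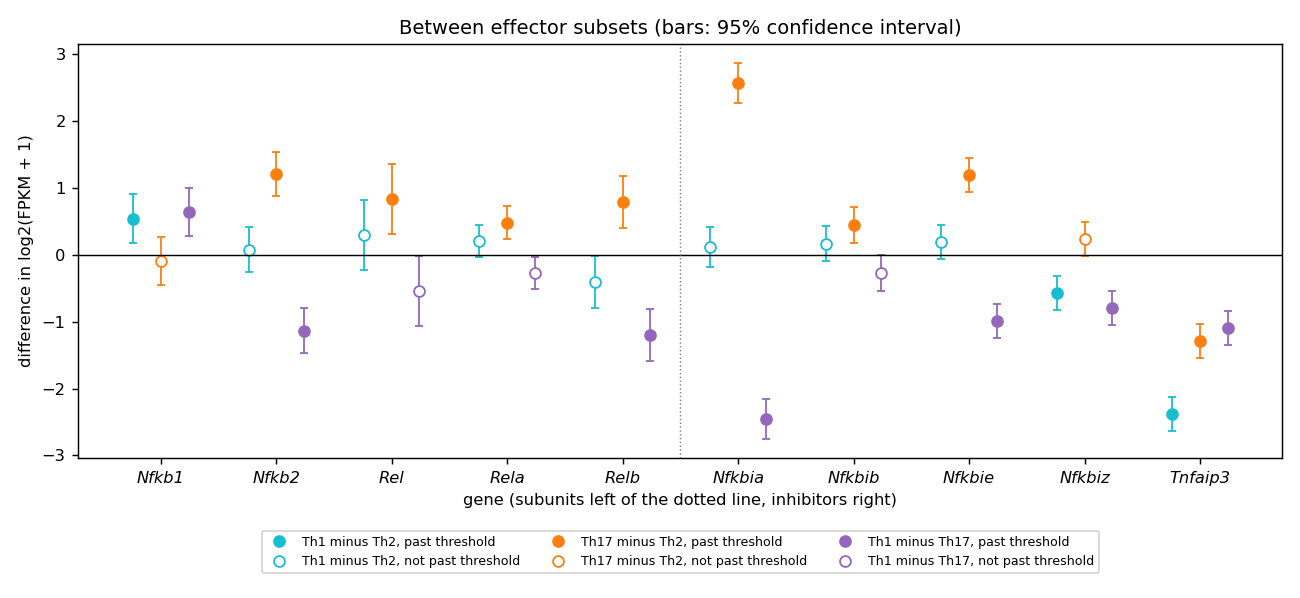
Difference between effector subsets in log2(FPKM + 1) for each gene (horizontal axis), as Th1 minus Th2, Th17 minus Th2 and Th1 minus Th17, with 95% confidence intervals from limma and open circles for values that did not pass. *Nfkbia* reaches 2.56 for Th17 minus Th2, and *Tnfaip3* is at -2.38 for Th1 minus Th2.

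The mixture of subunit transcripts differed between the groups. Of the summed FPKM of the 5 subunits, *Nfkb1* made up 33.4% ± 2.46 in naive cells, against 61.1% ± 0.301 in Th1 cells, 52.8% ± 0.293 in Th2 cells and 36.4% ± 1.09 in Th17 cells (SD, n = 2). *Rela*, at 37.3% ± 2.77 in naive cells, made up 18.4% ± 0.294 in Th1, 20.1% ± 0.665 in Th2 and 20.7% ± 0.794 in Th17. The share of *Nfkb2* was 12.4% ± 0.187 in naive cells and 29.0% ± 0.990 in Th17, so that *Rela* and *Nfkb1* led in naive cells, *Nfkb1* led alone in Th1 and Th2, and Th17 cells held the largest share of the noncanonical precursor. *Relb* had its lowest share in Th1, 5.24% ± 0.222, against 9.05% ± 0.791 in Th2, 11.8% ± 1.28 in Th17 and 13.2% ± 0.940 in naive cells. *Rel* stayed between 1.20% and 4.44% in all libraries. Its gene model in the files lacks 4882 bases at the 3′ end, and the effect of this on its share was not tested. The ratio of *Nfkb2* to *Nfkb1* transcripts was 0.797 ± 0.0512 in Th17 and 0.229 ± 0.00445 to 0.371 ± 0.0217 in the other groups.

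The level of the IκB transcripts relative to the subunits separated the groups into a high and a low pair. The summed FPKM of *Nfkbia*, *Nfkbib* and *Nfkbie* divided by that of the 5 subunits was 1.47 and 1.08 in the naive libraries and 1.01 and 0.982 in Th17, but 0.301 and 0.278 in Th1 and 0.322 and 0.339 in Th2. Every naive and Th17 library lay above every Th1 and Th2 library. *Nfkbia* made up 82.3% ± 1.53 of the IκB sum in naive and 80.5% ± 0.634 in Th17 cells, and 53.0% ± 0.935 in Th1 and 54.4% ± 4.29 in Th2. Per *Rela* transcript, *Nfkbia* stood at 2.80 ± 0.454 in naive, 0.837 ± 0.0469 in Th1, 0.899 ± 0.133 in Th2 cells, and at 3.87 ± 0.0301 in Th17. For the 5 shares and the ratio of *Nfkb2* to *Nfkb1*, an exact permutation test of the F statistic over the 4 groups gave p-values of 0.00952, the smallest that its 105 arrangements allow, to 0.0286 (adjusted p = 0.0214 to 0.0321 over the 9 measures tested). It gave 0.00952 for the ratio of the IκB sum to the subunits (adjusted p = 0.0214), 0.019 for *Nfkbia* per *Rela* (adjusted p = 0.0245) and 0.0667 for the share of *Nfkbia* in the IκB sum, which did not pass. The measures were chosen with their values known, and further shares and ratios were computed but not tested. The 5 shares add up to a whole and are not independent of each other. The p-values do not account for this choice, and the test does not say which groups differed. The shares and ratios concern transcripts only, since protein, processing and nuclear entry were not measured here.

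**Figure D4:**
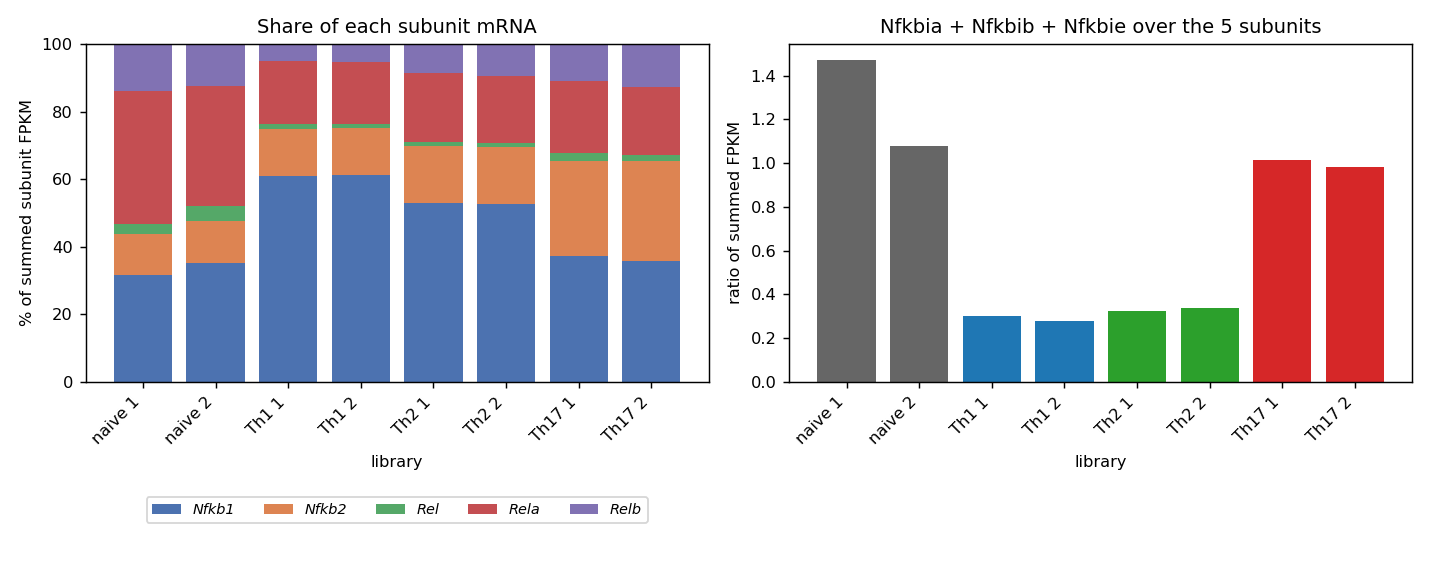
Left, share of each subunit in the summed FPKM of the 5 subunits (%) in each of the 8 libraries. Right, ratio of the summed FPKM of *Nfkbia*, *Nfkbib* and *Nfkbie* to that of the subunits in each library, with naive and Th17 libraries at 0.982 to 1.47 and Th1 and Th2 libraries at 0.278 to 0.339.

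Upstream of NF-κB, most transcripts of the kinase complex and its adaptors were lower in effector than in naive cells. Of 25 such genes, all tested, 17 were lower and 3 higher in Th1, 21 lower and 2 higher in Th2, and 16 lower and 2 higher in Th17, with median differences of -0.60, -0.57 and -0.45. Of all genes tested, 33.5%, 38.7% and 29.8% were lower in these comparisons, and 33.8%, 31.8% and 37.5% higher. With median scaling 14 in place of 21 were lower in Th2. *Traf5*, an adaptor of TNF receptor family members, fell from 33.4 ± 6.60 FPKM in naive cells to 3.25 ± 0.641 in Th1, 2.78 ± 0.730 in Th2 cells and 1.65 ± 0.222 in Th17 cells (SD, n = 2, log2 differences -3.01, -3.19 and -3.69). *Ikbke*, the gene of the IKK-related kinase IKKε, fell from 140 ± 17.6 to between 23.1 ± 0.912 in Th2 and 37.6 ± 3.83 in Th17. The TCR-proximal gene *Prkcq* (PKCθ) was likewise lower in each subset and lowest in Th2, at 24.8 ± 1.92 against 61.7 ± 7.02 in Th1 (log2 1.28, adjusted p = 0.000269). *Ripk1*, a kinase of the TNF receptor pathway, differed by 1.06 between Th1 and Th2 (adjusted p = 0.000407). Against this direction, *Malt1*, the gene of a paracaspase that acts downstream of the TCR, rose from 21.3 ± 1.83 to 93.4 ± 0.742 in Th1, 134 ± 13.4 in Th2 and 144 ± 9.21 in Th17, and *Traf6* from 13.2 ± 0.0374 to 20.8 ± 1.23, 34.9 ± 0.124 and 24.3 ± 1.24. The IκB kinase complex genes *Ikbkb*, *Chuk* and *Ikbkg* and the NIK gene *Map3k14* are named outside the rule, after their values were seen. *Ikbkg* was lower in Th2 (-0.41, adjusted p = 0.0187, limma) but not called in Th1 (-0.13, adjusted p = 0.388) or Th17 (-0.13, adjusted p = 0.389). *Ikbkb* fell from 65.3 ± 4.83 to 21.3 ± 0.164 to 22.7 ± 2.28, *Map3k14* from 26.3 ± 5.67 to 8.17 ± 1.13 in Th1, 10.7 ± 0.104 in Th2 and 12.6 ± 0.327 in Th17, and *Chuk* changed less, by -0.33 to -0.37 (adjusted p = 0.0178 to 0.0275, limma).

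Further inhibitors and modulators of the pathway moved in both directions. Of 16 genes listed, 15 were in the tables and tested, and 5 were higher and 7 lower in Th1, 4 higher and 7 lower in Th2, and 7 higher and 7 lower in Th17 than in naive cells, with median differences of -0.17, -0.15 and 0.41. Of all genes tested, 33.8%, 31.8% and 37.5% were higher and 33.5%, 38.7% and 29.8% lower in these comparisons, so that the 5 higher in Th1 and the 4 higher in Th2 were near the share over all genes. With median scaling the median in Th2 was 0.04, so its sign depended on the scaling. *Bcl3*, a nuclear IκB protein that binds p50 and p52 dimers, rose from 16.3 ± 3.29 FPKM in naive cells to 62.1 ± 5.96 in Th1, 80.7 ± 7.73 in Th2 and 83.9 ± 16.1 in Th17. *Tnip2*, which encodes an A20-binding protein, rose from 6.06 ± 0.304 to 20.2 ± 0.695, 40.2 ± 0.386 and 43.0 ± 1.37 in the same order, and *Tax1bp1* and *Rnf11*, whose products work with A20, were also higher in each subset. *Nfkbid*, another nuclear IκB family gene, fell from 31.6 ± 1.39 to 9.22 ± 1.5 in Th1, 5.04 ± 0.102 in Th2 and 7.86 ± 1.92 in Th17, and *Rc3h1*, *Tnfaip8l2* and *Pdlim2* were lower in each subset as well. Th17 cells were higher in *Tnip3*, with 5.05 ± 0.0368 FPKM against 0.111 ± 0.0665 in Th2 (log2 2.45, adjusted p = 1.62e-05), in *Tnip1*, with 64.1 ± 9.93 against 22.6 ± 2.97 (log2 1.46, adjusted p = 0.000597), and in the RNase gene *Zc3h12a*, with 19.4 ± 2.87 against 8.63 ± 0.963 in Th1 (log2 difference 1.08, adjusted p = 0.0021).

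Textbook target genes of NF-κB were mostly higher in Th1 and Th17 cells. Of 24 genes listed, 21 were tested, and 12 were higher and 5 lower in Th1, 8 higher and 7 lower in Th2, and 17 higher and 4 lower in Th17 than in naive cells. Beside these counts stand 33.8%, 31.8% and 37.5% of all genes tested that were higher, and 33.5%, 38.7% and 29.8% that were lower, and the counts in Th2 were near these shares. Their median difference was 0.81 for Th1, -0.15 for Th2 and 1.56 for Th17 cells. Median scaling gave 0.90, 0.06 and 1.57, so the sign in Th2 depended on the scaling. *Irf4*, a transcription factor induced by TCR signals, rose from 1.88 ± 0.374 FPKM to 113 ± 10.2 in Th1, 184 ± 2.19 in Th2 and 165 ± 0.401 in Th17, and *Ier3* was at 0.222 ± 0.0343 in naive cells and at 35.9 ± 4.55 to 78.6 ± 21.9 in the subsets. *Lta*, the gene of lymphotoxin-α, stood at 392 ± 28.5 in Th1 and 362 ± 4.59 in Th17 but at 26.5 ± 0.234 in Th2 (Th1 minus Th2 3.84, adjusted p = 2.62e-06). *Tnf* was at 51.8 ± 0.427 in Th1 against 4.45 ± 0.307 in Th2 (log2 3.28, adjusted p = 6.6e-06). The chemokine gene *Ccl22* reached 45.3 ± 0.558 in Th17 against 4.08 ± 0.206 in Th1 (log2 difference 3.19, adjusted p = 4.35e-06), and was listed at 0 in naive replicate 1. In the other direction, *Irf1* fell from 221 ± 17.1 in naive cells to 82.3 ± 9.06 in Th1, 25.3 ± 0.294 in Th2 and 19.8 ± 1.26 in Th17, and *Ltb*, *Cflar* and *Vcam1* were lower in each subset as well. In Th17 minus Th2, 14 targets were higher and 4 lower, beside 31.7% and 12% of all genes tested. Both numbers were smaller when some single libraries were left out. The median of the list in this comparison was 1.37, and 1.18 with median scaling, since the comparison includes the general shift described above. Many of these genes have other regulators too, so the list measures transcripts and not NF-κB activity.

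**Figure D5:**
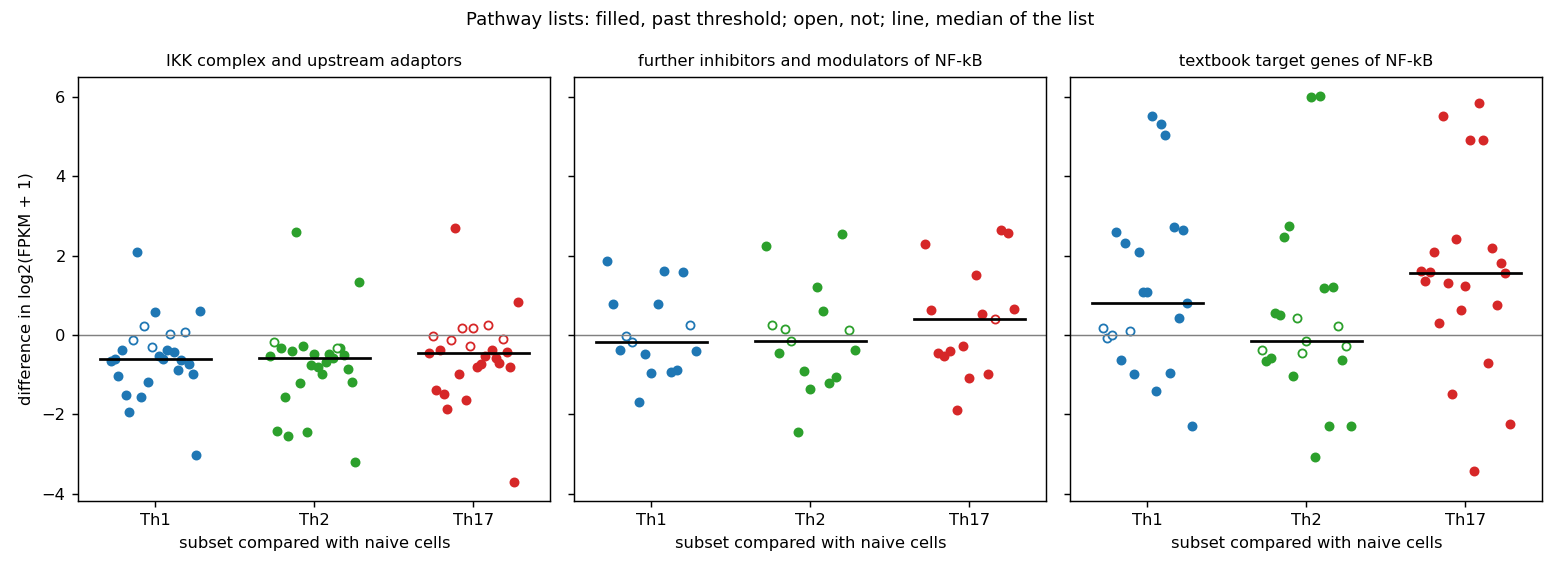
Difference from naive cells in log2(FPKM + 1) for the tested genes of the 3 pathway lists in Th1, Th2 and Th17, with filled circles for genes past an adjusted p of 0.05 in limma and open circles for the rest. Black lines mark the list medians, which lie at -0.60 to -0.45 for the kinase complex and adaptors and at 0.81, -0.15 and 1.56 for the target genes.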

How the data were processed

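RNA-seq libraries of naive, Th1, Th2 and Th17 cells, 2 per group, were analysed. Per the submitters' processing notes and the methods, the authors aligned 50-base reads to mm10 with Bowtie 0.12.8 and TopHat 1.3.2 and deposited FPKM per gene with a confidence interval from Cufflinks 2.0.2. The annotation is not given in the sources used here, and no read counts were used. The labels name a stranded kit and the methods an unstranded one.

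Rows were summed per symbol. Values were tested as log2(FPKM + 1), which understates changes of low genes, for the 11198 genes whose mean reached 1 FPKM. One limma fit (version 3.58.1, R 4.3.3, mean-variance trend) of all 8 libraries, with 4 residual degrees of freedom, gave 6 two-sided comparisons, adjusted by Benjamini-Hochberg over all genes tested, with a threshold of 0.05. The fit was also run on simulated data with independent noise and few changed genes. That setting differs from these data and does not show how the fit performs here. Shares and ratios of members were compared over the 4 groups by an exact permutation test of the F statistic. The alternatives were another pseudocount (0.1), filters on low values (none, or a mean of 5), median scaling, quantile normalization, only the 2 groups compared, no trend, the largest row per symbol, the replicate block, voom on the fragment numbers that the intervals imply, and each library left out.

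Groups and replicate numbers came from the labels, which do not say what a number marks. Replicate differences correlated at 0.138 to 0.294 in all 6 pairs of groups, so a fit with the number as a block was run as an alternative. The blocked value is given where it changes a call. The main fit and the permutation test did not use the number.

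The members and lists were chosen with earlier results of these data known. Beside the 10 members, the genes named from each pathway list were up to 4 higher and up to 4 lower than naive in all 3 comparisons, by the size of the mean difference, and up to 3 with the largest difference between subsets. Of the genes this rule selects, 1 is not reported here. Promoter sequences came from RefSeq (GRCm38.p6). Tables and figures were prepared with Python 3.11.15, pandas 2.3.3, numpy 2.4.6 and matplotlib 3.10.9.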

Additional observations from a re-analysis of the deposited data

Results flagged for a closer look

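Each of the 10 genes differed between at least a pair of effector subsets by a test of that difference (limma, with p-values adjusted over all genes), and its difference with the smallest p-value is given here on the log2(FPKM + 1) scale. Of all genes tested, 59.9% passed in at least 1 of the same 3 comparisons. Th17 exceeded Th2 by 2.56 for *Nfkbia* (adjusted p = 2.43e-05), 1.21 for *Nfkb2* (0.000876), 1.19 for *Nfkbie* (0.000313), 0.83 for *Rel* (0.0215), 0.48 for *Rela* (0.00964) and 0.44 for *Nfkbib* (0.0187). Th1 minus Th17 was -1.2 for *Relb* (adjusted p = 0.00229), -0.8 for *Nfkbiz* (0.00204) and 0.63 for *Nfkb1* (0.0235). Th1 minus Th2 was -2.38 for *Tnfaip3* (adjusted p = 1.06e-05). The values given for *Nfkb1*, *Rel*, *Rela* and *Nfkbib* lost their call when single libraries were left out, with adjusted p-values of up to 0.127, 0.1, 0.0616 and 0.105, and that of *Nfkbiz* was lost with voom (adjusted p = 0.373).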

How the results depend on the processing

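Of 1074 values of the 10 genes under the 18 alternatives, 992 kept their direction and side of the threshold, 56 lost their call, 16 gained one and 10 changed sign. The 10 changes of sign were all in differences that passed neither way. With median scaling *Nfkb2* Th1 minus Th2 was -0.0467, *Nfkbia* Th1 minus Th2 -0.0133 and *Nfkbib* Th2 minus naive 0.091, and with quantile normalization these were -0.0473, -0.0129 and 0.0071. *Nfkbib* Th1 minus naive was -0.1088 with voom. With each library left out in turn it ranged from -0.0071 to 0.1059, *Nfkbia* Th1 minus Th2 from -0.0027 to 0.2149 and *Rel* Th17 minus naive from -0.4693 to 0.2435.

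The number of genes higher in Th17 than in naive cells was 3 in place of 5 with no filter on low values, with only the 2 groups compared and with voom. For Th1 minus Th2 the number higher was 0 in place of 1, *Nfkb1*, with no filter, median scaling and quantile normalization, and for Th1 minus Th17 it was 0 in place of 1 with no filter. The cause was not tested. With each library left out in turn, these counts were 3 to 5, 0 to 1 and 0 to 1, and the number higher in Th17 than in Th2 was 4 to 7. With the replicate block the 10 genes gained 4 calls, *Relb* in Th2 minus naive (adjusted p = 0.027) and Th1 minus Th2 (0.0141), *Rela* in Th1 minus Th17 (0.0482) and *Nfkbiz* in Th17 minus Th2 (0.0367), so that 8 in place of 7 were higher in Th17 than in Th2, and no other call changed. *Nfkb2* in Th2 minus naive was lost with voom (adjusted p = 0.0681). Of 648 counts of the pathway lists, 605 stayed within 1.5 times the count reported. The widest interval, for *Rel* in Th2 replicate 1, corresponds to the lowest number of implied fragments, 139.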

Other observations

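The tested genes whose pattern over the 8 libraries was closest to each member, by the root mean square distance of log2(FPKM + 1) centred on each gene's mean, were *Cntrob* for *Nfkb1* (0.0833), *Rnd1* for *Nfkb2* (0.0902), *Drosha* for *Rel* (0.145), *Tyk2* for *Rela* (0.0366), *Suox* for *Relb* (0.152), *Lrig1* for *Nfkbia* (0.317), *Acot8* for *Nfkbib* (0.0417), *Pde8a* for *Nfkbie* (0.116), *App* for *Nfkbiz* (0.116) and *Tec* for *Tnfaip3* (0.176). The members differ in how widely they vary, from a standard deviation over the libraries of 0.19 for *Nfkbib* to 1.27 for *Nfkbia*, and the distances are to be read against that. *Zc3h12a*, a modulator of the pathway, was among the 3 closest genes to *Nfkbie* (0.12), and *Nr4a1*, an immediate early gene, among the 3 closest to *Nfkbia* (0.451). Within the 10 genes, *Rel* and *Rela* were closest to each other (0.228), as were *Relb* and *Nfkbie* (0.243). These distances describe 8 libraries in 4 groups and carry no test.

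Replicate 2 was above replicate 1 for 10 of the 10 genes in Th1, with a median difference of 0.12 on the log2 scale, and for 9 in Th17, with a median of 0.18, where the medians of all genes were 0.05 and 0.06. In naive cells it was above for 7 and in Th2 for 4. The summed FPKM of 4 neutrophil and myeloid precursor genes was 7.98 to 9.17 in replicate 1 and 0.268 to 0.952 in replicate 2 of the effector subsets.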
